A study of Mus musculus with 17 samples.

Results

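Of the 35285 genes in the expression table of these mouse cochlear libraries, 75 were long noncoding RNA genes with a mean level of at least 5 FPKM over all 17 libraries. FPKM is the number of sequenced fragments scaled to transcript length and to the fragments of the library. The table writes this class as lincRNA, for genes lying between coding genes, and antisense_RNA, for genes lying on the opposite strand of another gene. It holds 5510 genes of both kinds, and 49 of 3208 lincRNA genes and 26 of 2302 antisense_RNA genes passed the minimum. Lhx1os was left out by the rule, and its mean of 2.10 FPKM was also under the minimum. The genes were therefore selected on their measured level, so the level itself is given as a description. The last genes inside the minimum were Gm16015, Gm15777 and Gm27003, with means of 5.05, 5.05 and 5.03 FPKM, and the nearest outside were A430046D13Rik, Gm38843 and Gm28192, with 4.87, 4.86 and 4.83 FPKM.

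The libraries came from cochlear RNA of wild-type C57BL/6J mice, aged 8 weeks and sampled 2 days after exposure, with 1 mouse per library. The study gives the source of the sequenced RNA as the cochleae and, in its account of RNA extraction, as basilar membrane tissue. The study describes the mice as male, and the RNA of 1 library, control 2, did not match this. The control group (n = 3) received saline and no noise. The noise exposure (NE) group (n = 7) received noise of 8 to 16 kHz at 100 dB for 2 h, and no injection is described for it. The brimonidine group (n = 7) received the same noise and the alpha-2 adrenergic receptor agonist brimonidine, injected 3 times into the abdomen at 1 mg/kg on the day before, 0.5 h before and on the day after exposure. The labels name the tissue as cochlear cells and the cell type as interstitial cells. Of 14 cochlear marker genes, 10 had a group mean of at least 1 FPKM in each group, and the summed level of the list was 583 to 1469 FPKM per library.

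Long noncoding RNAs are transcripts that act, where a function is known, as RNA: some build nuclear bodies, some bind proteins or microRNAs, and some mainly carry a microRNA or small nucleolar RNA that is cut out of them. A microRNA gene lies within a longer host transcript that is trimmed to a hairpin and then to a mature RNA of about the length shown here. The mature strand finds its targets mainly through the seed near its 5′ end. Cochlear tissue can hold bone and its marrow cells beside sensory, supporting and nerve cells, and many long noncoding RNAs are restricted to few cell types.

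Of the 75 genes, 9 contained an annotated microRNA gene and 4 contained a small nucleolar or Cajal body RNA gene. Of the 16 microRNA genes, 14 had an entry in RefSeq, with 26 mature sequences (GRCm38.p6). The sequences of the hosts that the results turn on are shown because host RNA, and not the mature microRNA, was measured. Capitals mark the seed, bases 2 to 8. F630028O10Rik carries Mir223, which is abundant in myeloid cells, and Mir142hg carries Mir142, which is found across blood cells.
miR-223-3p: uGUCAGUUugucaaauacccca
miR-223-5p: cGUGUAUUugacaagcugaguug
miR-142a-3p: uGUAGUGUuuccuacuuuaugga
miR-142a-5p: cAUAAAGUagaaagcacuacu
Mir17hg carries 6 microRNA genes that act in cell growth. In this set miR-17-5p and miR-20a-5p shared the seed AAAGUGC, and miR-19a-3p and miR-19b-3p shared GUGCAAA.
miR-17-5p: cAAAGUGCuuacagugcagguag
miR-20a-5p: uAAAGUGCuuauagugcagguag
miR-19a-3p: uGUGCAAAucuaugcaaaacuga
miR-19b-3p: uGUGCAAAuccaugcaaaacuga
miR-18a-5p: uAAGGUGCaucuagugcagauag
miR-92a-3p: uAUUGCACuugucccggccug
The imprinted genes Meg3 and H19 contain Mir770 with Mir1906-1 and Mir675, and E130102H24Rik contains Mir101a. No seed was shared among them.
miR-770-5p: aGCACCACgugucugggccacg
miR-770-3p: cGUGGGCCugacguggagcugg
miR-1906: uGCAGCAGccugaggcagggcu
miR-675-5p: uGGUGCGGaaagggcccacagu
miR-675-3p: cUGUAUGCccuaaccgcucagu
miR-101a-3p: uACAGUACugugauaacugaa
miR-101a-5p: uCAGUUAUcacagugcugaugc
Mir124a-1hg contains Mir124a-1, the source of a microRNA of neurons, and Mir3078.

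A promoter window of 300 bases, from 250 bases before the start to 50 after it, was matched by symbol in RefSeq (GRCm38.p6) for 32 of the 75 genes. It began within 500 bases of the start in the table for 26 of them. Each window was searched on both strands for 5 motifs, and overlaps between motifs were counted. The GC box GGGCGG was found in 11 windows, or 34.4%, against 35.7% of all 32851 promoter windows. The CCAAT box, spelled CCAAT, was found in 8 or 25% against 37.4%, and the TATA box TATAAA in 1 or 3.13% against 13.6%. The E-box CACGTG was in 1 window, or 3.13%, against 7.15%, and the cAMP response element core TGACGTCA was in 2, or 6.25%, against 1.79%. A run of at least 8 pyrimidines at the start was present in 4 windows, or 12.5%, against 6.31%. Those were 2810001G20Rik, B230208H11Rik, Gm5547 and Snhg18.

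The promoters of 3 genes described below are shown with motif matches in capitals. The Meg3 window (chr12:109540746-109541045, plus strand) was the only one of the 32 with a TATA box, and it also held the cAMP response element core, which Gm14321 shared, and a CCAAT box. F630028O10Rik (chrX:96239676-96239975, plus strand) held none of the 5 motifs. AU020206 (chr7:75782071-75782370, minus strand) held a GC box and 3 CCAAT boxes.
Meg3: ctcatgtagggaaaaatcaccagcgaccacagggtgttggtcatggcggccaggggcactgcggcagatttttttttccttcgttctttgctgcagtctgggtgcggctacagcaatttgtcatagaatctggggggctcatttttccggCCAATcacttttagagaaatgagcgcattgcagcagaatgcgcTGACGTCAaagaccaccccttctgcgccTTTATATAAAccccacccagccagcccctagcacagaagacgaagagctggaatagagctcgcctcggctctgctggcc
F630028O10Rik: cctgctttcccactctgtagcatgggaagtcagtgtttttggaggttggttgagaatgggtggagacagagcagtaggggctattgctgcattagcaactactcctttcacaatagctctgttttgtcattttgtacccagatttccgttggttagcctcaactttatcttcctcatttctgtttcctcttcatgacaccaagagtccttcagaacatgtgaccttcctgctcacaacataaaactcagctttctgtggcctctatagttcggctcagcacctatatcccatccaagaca
AU020206: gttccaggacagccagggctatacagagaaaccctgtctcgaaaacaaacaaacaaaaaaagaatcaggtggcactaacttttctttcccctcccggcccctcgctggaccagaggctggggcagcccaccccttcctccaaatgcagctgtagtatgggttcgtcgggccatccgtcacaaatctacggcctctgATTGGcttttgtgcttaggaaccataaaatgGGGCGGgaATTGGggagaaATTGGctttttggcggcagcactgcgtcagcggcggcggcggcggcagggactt

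The library labelled control 2 stood apart from the other 16. Its median correlation with them was 0.831 on the log scale, against 0.947 to 0.981 for the others. Xist, the X inactivation RNA that is transcribed in female cells, was listed at 70.9 FPKM in control 2 and at no more than 0.173 FPKM in any other library. The Y-linked Ddx3y was at 0.595 FPKM there and at 14.0 to 20.8 FPKM elsewhere. With a mean of 4.20 FPKM, Xist was itself under the minimum. The summed level of 10 neutrophil markers was 9801 FPKM in control 2 and 39669 to 64942 FPKM in the others. The 14 markers of cerebellar and hindbrain neurons summed to 440, 1133 and 419 FPKM in controls 1 to 3, to 55.9 to 82.1 FPKM in the NE group and to 51.2 to 151 FPKM in the brimonidine group, and none of the 14 was at 0 throughout a group. Control 2 held the lowest level of all 17 libraries for 35 of the 75 genes, or 46.7%, against 24.99% of 16416 expressed genes. It held the highest for 17, or 22.7%, against 39.4%. Counts of calls and medians against the control group, and the values that leaving out control 2 changed most, are therefore also given without it.

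The 75 genes differed widely in level. Their means ran from 5.03 to 119 FPKM with a median of 8.32 FPKM, and 45 genes were under 10 FPKM while 15 were above 20 FPKM. Their sum was 1007 to 1281 FPKM per library, or 0.256% to 0.319% of all summed FPKM. The highest was F630028O10Rik (ENSMUSG00000078122, chrX:96239926-96243636), at 119 FPKM. It was followed by Malat1, an RNA of nuclear speckles, at 80.5 FPKM, and AU040972, which overlaps the span of Nf1 on the opposite strand, at 57.7 FPKM. Next came 2900097C17Rik at 46.0 FPKM, the mouse form of Norad, which binds Pumilio proteins. Gm16194, in the span of Rab44 on the same strand, so that shared fragments cannot be told apart, and Mir142hg had means of 44.4 and 43.9 FPKM. Gm42047, AW112010, 1700020I14Rik and Neat1 had 39.5, 37.0, 36.6 and 34.6 FPKM. AW112010 is an RNA induced in immune cells, 1700020I14Rik is also called Cyrano and directs the decay of miR-7, and Neat1 is the scaffold of paraspeckles. These orders are within a library scale that is set per length.

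**Figure D1:**
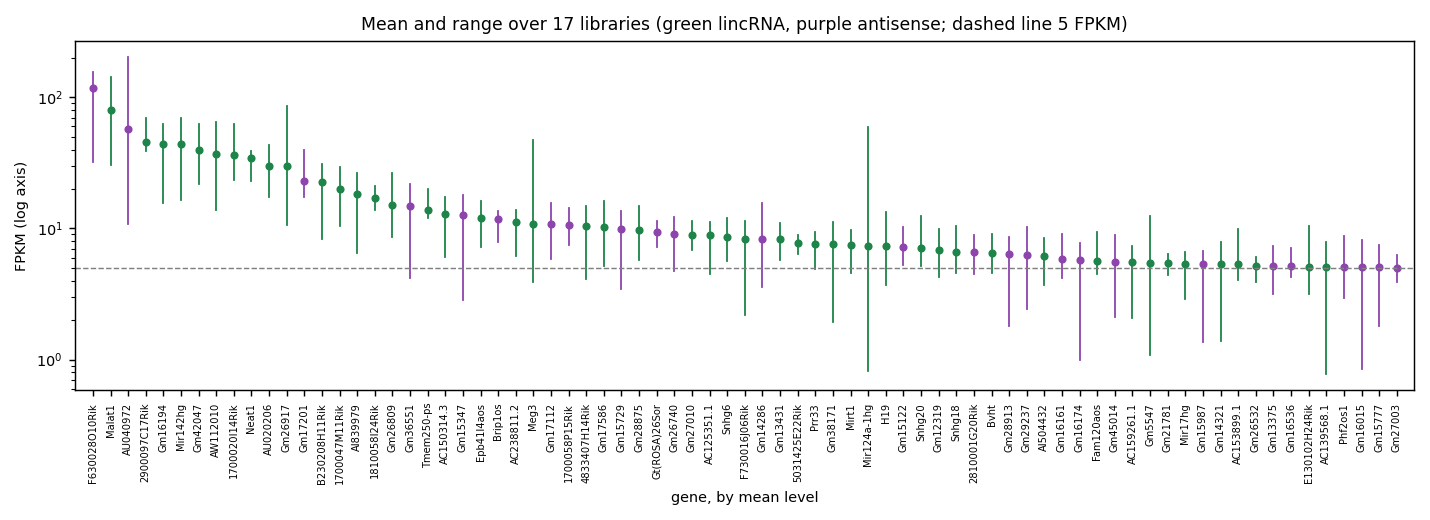
Mean level of each of the 75 genes (points) with its range over 17 libraries (lines), in FPKM on a log axis; green is lincRNA and purple is antisense_RNA, and the dashed line is the minimum of 5 FPKM. Most genes lie within 5 to 10 FPKM, and Mir124a-1hg has the widest range.

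The minimum was reached in every group by 57 of the genes, and 72 kept a mean of at least 5 FPKM when control 2 was left out. Over the 14 exposed libraries 5 genes had a mean under 5 FPKM, so they passed only through higher controls. They were Mir124a-1hg, AC153899.1, Gm16536, E130102H24Rik and Phf2os1. In the opposite direction, 11 genes had a control mean under 5 FPKM and passed through the exposed libraries, among them Gm5547, Gm16174, Mir17hg and Gm15987. The selection favoured the differences of these 16 genes from control, which are given as a description with no p. Leaving out the NE group put 6 genes under the minimum, so the selection also bears on their differences between brimonidine and NE: Gm5547, with 4.03 FPKM over the other 10 libraries against 7.45 FPKM in NE, Gm15987, Gm14321, AC139568.1, Gm16015 and Gm15777. Leaving out the brimonidine group did so for 3, which were Gm16015, Gm15777 and Gm27003. The merged exons were 256 to 20771 bases long with a median of 1168 bases. A single exon was listed for 11 genes, but this includes Gm16194, which had no gene model and was entered as its whole span. Of the 26 antisense genes, 21 overlapped the span of a coding gene. Of the 49 lincRNA genes, 4 overlapped such a span and a further 18 lay within 5 kb of one. Exonic bases of 20 genes lay under exons of the other strand, and for 6 genes this exceeded a share of 25%. For Gm17201 it was 59.5% of the exonic bases, under Ankrd52, and for 4833407H14Rik it was 67.5%, under Mirt1. Whether strand was used in counting is not given in the sources used here, so fragments of such pairs cannot be told apart.

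The comparison of NE with control asks which RNAs differed 2 days after noise. All 75 genes passed the filter of 1 FPKM in 3 libraries and were tested among 15950 genes. A call needed an adjusted p under 0.05 and a change of at least 2-fold. By this rule 3 genes were lower and 2 higher after noise, or 4% and 2.67% of the 75. Over all genes tested, 5.49% were lower and 0.270% higher. Mir124a-1hg, Meg3 and Gm26917 were the genes called lower, and Gm5547 and Mir142hg those called higher. Of these, Mir124a-1hg and Gm5547 were favoured by the selection, which leaves Meg3 and Gm26917 lower and Mir142hg higher among the other 59 genes. With no minimum fold change, 6 were lower and 4 higher, against 12.0% and 2.12% of all genes. The NE values did not overlap the control values in 8 genes from below and 5 from above, while the shares over all genes were 15.0% and 3.24%. Among the 59 genes that the selection did not favour, 3 were lower and 3 higher by the adjusted p (5.08% each), and 5 and 4 did not overlap (8.47% and 6.78%). The median log2 fold change was 0.21 over the 75 genes and -0.04 over all genes tested. Without control 2 these medians were 0.055 and -0.014. Over the 59 genes the median was 0.17, and 0.012 without control 2.

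Mir124a-1hg (chr14:64587331-64593961) is the host of a neuronal microRNA and passed the minimum through its high controls. It was at 22.3, 59.9 and 20.5 FPKM in controls 1 to 3. The NE libraries had 0.834 FPKM at the lowest, 1.31 at the median and 1.84 at the highest. All 7 NE libraries lay below all controls. The log2 fold change was -3.77 ± 0.29 (SE), and -3.29 without control 2. The markers of cerebellar and hindbrain neurons differed in the same direction. So did the 8 markers of spiral ganglion neurons, the nerve cells of the cochlea, which share Calb2 with that list. They summed to 195, 530 and 172 FPKM in the controls, to 55.8 to 153 FPKM in NE and to 70.7 to 110 FPKM in brimonidine, with every control above every exposed library and none of the 8 at 0 throughout a group. The part of these cells in the difference was not tested. The study reports that spiral ganglion neuron counts did not differ among its groups at the time point sampled here, without showing the data. From bulk libraries alone, the number of cells of a type, the RNA per cell and the make-up of the dissected tissue cannot be told apart.

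Meg3 (chr12:109541001-109571726), an imprinted RNA expressed from the maternal copy and abundant in brain, was at 20.02, 47.6 and 18.1 FPKM in the controls. The NE libraries ran from 4.68 FPKM through a median of 6.92 to 12.6 FPKM, again without overlap. Its log2 fold change was -1.75 ± 0.33 (adjusted p = 0.00524). Without control 2 it was -1.32 (adjusted p = 0.0215). Both neuron marker lists were likewise higher in all controls than in any exposed library, and their part was not tested. H19, the other imprinted gene of the 75, showed no called change: it was at 3.67, 8.36 and 4.51 FPKM in the controls and at 6.07, 7.57 and 13.5 FPKM at the lowest, median and highest in NE (log2 fold change 0.54 ± 0.25, adjusted p = 0.159, and 0.83 without control 2, adjusted p = 0.0654).

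Gm26917 (chr17:39843013-39846341) was at 86.0, 54.5 and 42.4 FPKM in the controls and at 13.8, 22.1 and 32.1 FPKM at the lowest, median and highest in NE. The groups did not overlap, and the log2 fold change was -1.43 ± 0.25 (adjusted p = 0.00394), or -1.48 without control 2 (adjusted p = 0.0154). This gene ends 11 bases from CT010467.1, annotated as ribosomal RNA, on the other strand. CT010467.1 was at 795 to 1259 FPKM in the controls and 193 to 992 FPKM in NE, and its ranges overlapped (-1.12 ± 0.47 on the log2 scale, adjusted p = 0.130). Lars2, a coding gene named after its values were seen, whose mouse transcript includes a ribosomal RNA repeat, was at 163 to 244 FPKM in the controls and 15.1 to 91.0 FPKM in NE, with no overlap (-2.12 ± 0.55, adjusted p = 0.0281). Without control 2 it was -2.11 (adjusted p = 0.0989). Ribosomal RNA is present in many near-identical copies, so the level of Gm26917 is uncertain, and the part of ribosomal RNA in its difference was not tested.

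**Figure D2:**
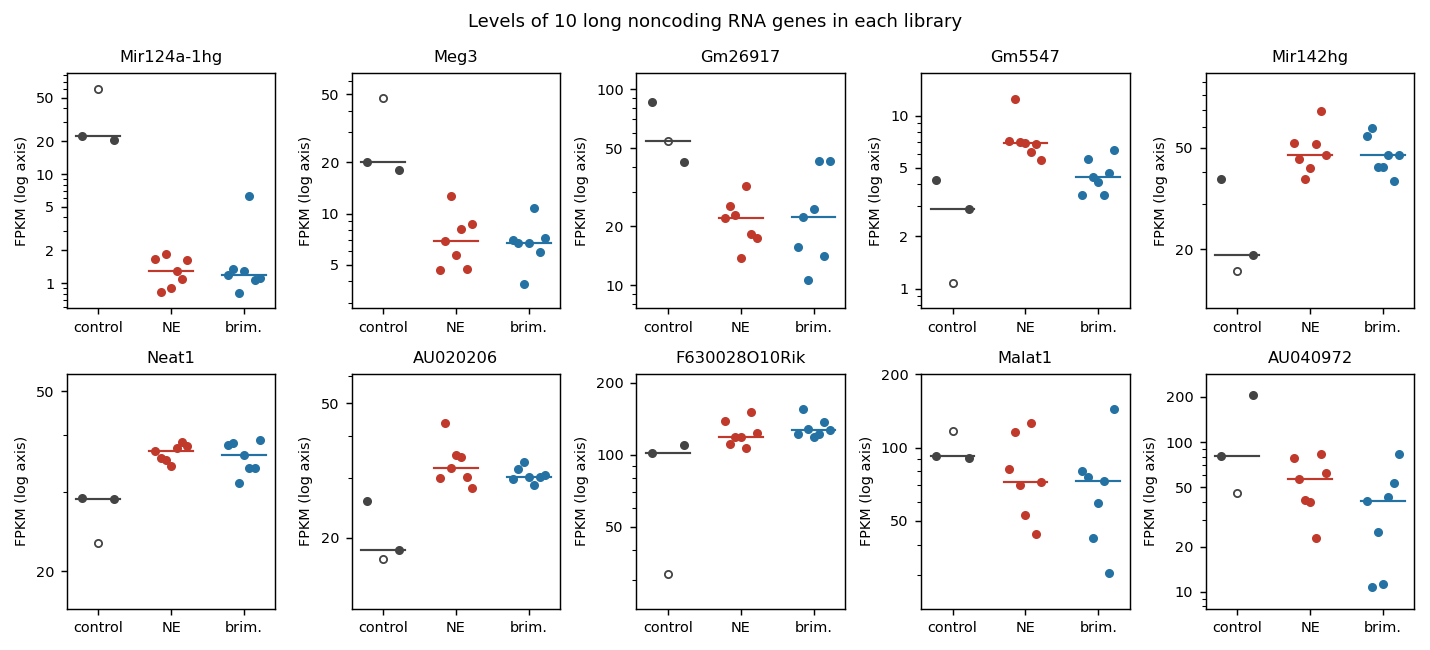
Levels of 10 genes in each library, in FPKM on log axes, for control (grey), NE (red) and brimonidine plus noise (blue, brim.); each point is a library, the open point is control 2 and the line is the group median. Mir124a-1hg and Meg3 are higher in all 3 controls than in any exposed library, and Neat1 and AU020206 are lower.

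On the other side, Gm5547 (chr3:105815540-105817357) was at 4.25, 1.07 and 2.89 FPKM in the controls and at 5.55, 6.93 and 12.5 FPKM at the lowest, median and highest in NE. The groups did not overlap and the log2 fold change was 1.24 ± 0.27, or 0.87 without control 2, where it was no longer called. It reached the minimum only through NE. Mir142hg (chr11:87755577-87757270) was at 37.8, 16.4 and 18.96 FPKM in the controls and at 37.8, 46.6 and 69.8 FPKM in NE. The lowest NE library and control 1 were almost equal, and the log2 fold change was 1.05 ± 0.24 (adjusted p = 0.0157). Without control 2 it was 0.83 (adjusted p = 0.0884), and without control 3 it was 0.93 (adjusted p = 0.0612). Both genes had their lowest level of all libraries in control 2, where the neutrophil markers were also lowest. Control 3, however, had Mir142hg at 18.96 FPKM with neutrophil markers at 46080 FPKM, and control 1 had 37.8 FPKM with 43672 FPKM. The part of those cells was not tested. Without control 2, 3 genes were called lower, against 2.20% of all genes, and 0 higher, against 0.181%. At an unadjusted limma p under 0.05, 6 genes were higher without control 2, against 6.45% of all genes. With no minimum fold change, 1 was higher and 4 were lower without it, against 0.875% and 5.86%. Among the 59 genes, 4 were higher without it at the unadjusted p, or 6.78%.

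Neat1 passed the adjusted threshold with a smaller change. It was at 29.0, 23.1 and 28.8 FPKM in the controls and at 34.2, 36.8 and 38.6 FPKM at the lowest, median and highest in NE, with no overlap. The log2 fold change was 0.43 ± 0.08 (adjusted p = 0.00708), and 0.33 without control 2 (adjusted p = 0.0130). Malat1, its neighbour on chromosome 19, was at 92.3, 117 and 90.8 FPKM in the controls and at 44.3 to 126 FPKM in NE, and did not pass (log2 fold change -0.38 ± 0.29, adjusted p = 0.377). AU020206 was at 25.8, 17.3 and 18.5 FPKM in the controls and at 28.1, 32.1 and 43.7 FPKM in NE (log2 fold change 0.69 ± 0.15, adjusted p = 0.0122). Without control 2 its adjusted p was 0.0649. Of the genes lower by the adjusted p alone, Gm15122 had a log2 fold change of -0.42 and stayed under the threshold without control 2 (adjusted p = 0.0326). E130102H24Rik and AC153899.1 are also in that count, with -0.64 and -0.55 (-0.39 and -0.35 without control 2), but passed the minimum only through the controls. Gm16174, antisense to Bcl3, had a log2 fold change of 0.97 ± 0.30, or 0.49 without control 2, and passed the minimum only through the exposed libraries.

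**Figure D3:**
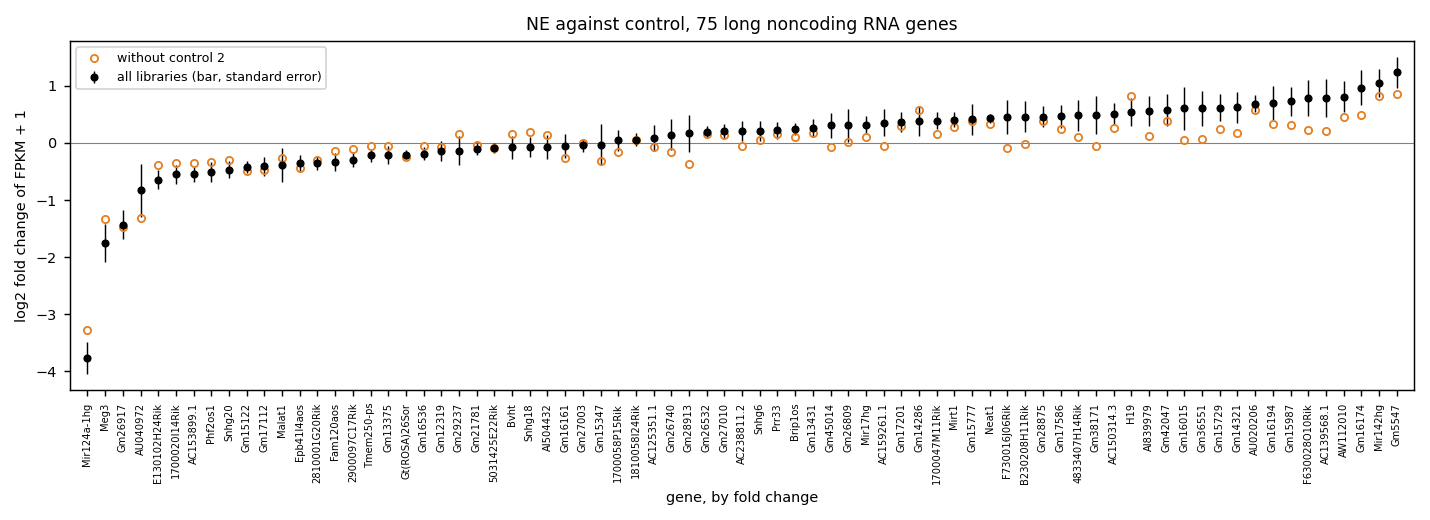
Log2 fold change of FPKM + 1 in NE against control for each of the 75 genes, ordered by size; black points with standard errors use all libraries and open orange points leave out control 2. The 3 genes called lower stay low, and most genes above 0 move toward 0 without control 2.

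By role, the other lists gave few calls. Of the nuclear body RNAs, Neat1 passed the adjusted p and Malat1 did not. Of the 9 genes with an annotated microRNA gene, 2 were called lower and 1 higher, beside the 5.49% and 0.270% of all genes given above. They were Meg3, Mir124a-1hg, which passed the minimum only through the controls, and Mir142hg, whose call was lost without control 2. So few genes allow no reading of the list. Mirt1 and Mir17hg, which also stand on the host lists, were not called, and Mirt1 contains no annotated microRNA gene. Of the 4 genes with an annotated small nucleolar or Cajal body RNA gene, none was called. The log2 fold changes were 0.21 for Snhg6, -0.07 for Snhg18, -0.47 for Snhg20 and -0.35 for Epb41l4aos, and 0.32 for Mir17hg. Without control 2, Snhg18 was at 0.18 and the other 4 kept their direction, at 0.055, -0.30, -0.44 and 0.11. The 5 blood cell RNAs, which were Mir142hg, AU020206, Bvht, Mir17hg and Gm15987, gave 1 call, higher, beside the 0.270% of all genes. It was Mir142hg, lost without control 2, and Mir17hg and Gm15987 passed the minimum only through the exposed libraries. Bvht is best known from heart development and was at 4.66 to 9.14 FPKM in NE. Of 3 ubiquitous RNAs, Malat1, 2900097C17Rik and 1700020I14Rik, none was called, and the last gave -0.55 ± 0.17 on the log2 scale (adjusted p = 0.0510) without overlap between groups, and -0.35 without control 2 (adjusted p = 0.228). Its level was 39.6, 63.2 and 43.5 FPKM in the controls and 23.5, 34.0 and 37.5 FPKM at the lowest, median and highest in NE. F630028O10Rik, the highest of the 75, was at 101, 31.9 and 110 FPKM in the controls and at 107, 119 and 151 FPKM in NE. Its log2 fold change was 0.79 ± 0.31 (adjusted p = 0.113) and 0.22 without control 2.

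Of 67 nearest coding neighbours tested, 8 passed the adjusted p, or 11.9% against 14.1% of all genes, with 4 in the direction of the RNA and 4 opposite to it. In brimonidine against control it was 13 of 66, or 19.7% against 15.8%, with 9 in the direction of the RNA. Without control 2, 5 passed in each comparison (7.46% and 7.58% against 6.74% and 9.48% of all genes), 3 of them in the direction of the RNA. The shares were thus near those of all genes. Tspoap1, 3271 bases from Mir142hg, had a log2 fold change of -0.45 ± 0.10 in NE against control (adjusted p = 0.0129), against 1.05 for Mir142hg, and did not pass without control 2 (adjusted p = 0.0536). Ak4, 62542 bases from E130102H24Rik, had -1.62 ± 0.23 (adjusted p = 0.00124), and -1.20 without control 2 (adjusted p = 0.000116). Rab44, whose span holds Gm16194, had 0.59 ± 0.20 (adjusted p = 0.0751), beside 0.70 for Gm16194 (adjusted p = 0.126). Without control 2 they had 0.24 and 0.33 (adjusted p = 0.180 and 0.541). Gm16194 was at 40.9, 15.6 and 30.5 FPKM in the controls and at 25.2 to 63.2 FPKM in NE. The neighbour of Mir124a-1hg, Kif13b, lies 53304 bases away and had -0.15 ± 0.18 (adjusted p = 0.581), or 0.064 without control 2 (adjusted p = 0.876).

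The comparison of brimonidine with NE asks what differed with the drug in noise-exposed mice. No injection is described for the NE group, so the drug and its injection cannot be told apart. None of the 75 genes was called higher or lower among 15707 genes tested, and 0 of all genes were called in either direction (0%). At an unadjusted limma p under 0.05, 1 of the 75 genes was higher and 2 were lower, against 3.30% and 2.46% of all genes. In none of the 75 genes were the groups apart, against 0.102% of all genes higher and 0.0382% lower. The median log2 fold change was 0.02 over the 75 genes and 0.01 over all genes.

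Gm5547, which reached the minimum only through NE, was at 5.55, 6.93 and 12.5 FPKM at the lowest, median and highest in NE and at 3.46, 4.41 and 6.34 FPKM in brimonidine. The ranges overlapped, and the log2 fold change was -0.58 ± 0.15. It is one of the 2 genes lower by the unadjusted p, and the selection favoured that difference. Gm26809 was at 11.2, 18.7 and 20.98 FPKM in NE and at 11.5, 12.8 and 14.7 FPKM in brimonidine (log2 fold change -0.39 ± 0.11, adjusted p = 0.603). Gm28913, antisense to Ikbke, was at 4.08, 5.41 and 7.91 FPKM in NE and at 6.00, 6.64 and 8.59 FPKM in brimonidine (log2 fold change 0.27 ± 0.12, adjusted p = 0.857).

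The other genes called in NE against control had brimonidine values that overlapped the NE range. Mir124a-1hg was at 0.822, 1.19 and 6.31 FPKM at the lowest, median and highest (log2 fold change 0.15 ± 0.25 against NE). Meg3 was at 3.89, 6.72 and 10.8 FPKM (-0.06 ± 0.20). Gm26917 was at 10.7, 22.3 and 43.1 FPKM (0.06 ± 0.28), and Mir142hg at 37.0, 46.6 and 59.6 FPKM (-0.06 ± 0.13). AU040972 was the most uneven of the 10 highest genes, at 22.8, 56.9 and 83.3 FPKM in NE and 10.8, 40.4 and 82.8 FPKM in brimonidine (-0.71 ± 0.42, adjusted p = 0.878). With errors of this size small changes could not be detected. Changes larger than their errors could also miss the call, as those of Gm5547, Gm26809 and AU040972 did. A missed threshold does not show equal levels.

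**Figure D4:**
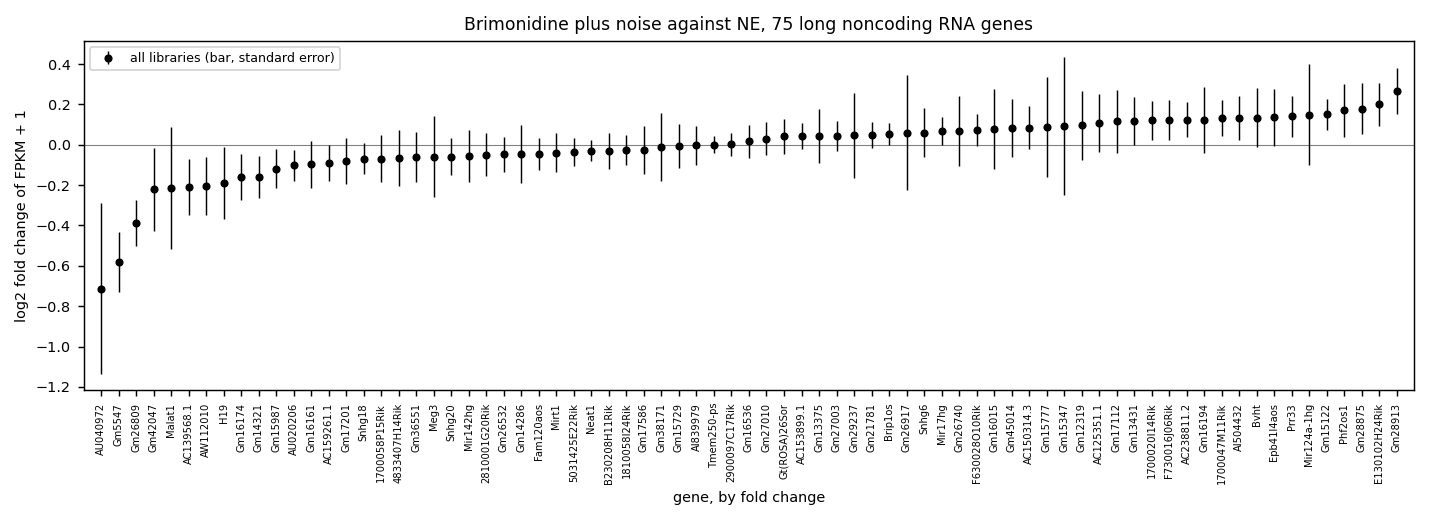
Log2 fold change of FPKM + 1 in brimonidine plus noise against NE for each of the 75 genes, ordered by size, with standard errors. AU040972 and Gm5547 have the most negative values, at -0.71 and -0.58, and none of the 75 was called.

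The comparison of brimonidine with control shares the controls of the NE comparison, so its values stand beside those above and are not a second test of them. Among 15947 genes tested, 3 of the 75 genes were called lower and 0 higher, against 5.56% and 0.169% of all genes. At an unadjusted limma p under 0.05, 22 were higher, against 13.6%, and of the 59 genes that the selection did not favour 18, or 30.5%. With no minimum fold change, 5 passed as lower and 7 as higher, against 12.3% and 3.47%. The groups did not overlap in 4 genes from below and 7 from above, against 14.3% and 5.07%. Among the 59 genes it was 3 lower and 7 higher by the adjusted p (5.08% and 11.9%), and 2 and 7 without overlap (3.39% and 11.9%). The median log2 fold change was 0.26 over the 75 genes and -0.03 over all genes, and without control 2 it was 0.035 and -0.0042. Over the 59 genes it was 0.22, and 0.040 without control 2. Without control 2, 2 genes were called lower, against 2.90% of all genes, and 0 higher, against 0.116%, and 11 were higher at an unadjusted limma p under 0.05, against 10.2%. With no minimum fold change, 1 was higher and 2 were lower without it, against 2.02% and 7.45%. Among the 59 genes, 11 were higher without it at the unadjusted p, or 18.6%.

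The genes called lower were Mir124a-1hg (log2 fold change -3.62 ± 0.44), Meg3 (-1.81 ± 0.30, adjusted p = 0.00274) and Gm26917 (-1.37 ± 0.42, adjusted p = 0.0491). The count includes Mir124a-1hg, which passed the minimum only through the controls. Without control 2 the adjusted p was 0.00489 for Meg3, and Gm26917 no longer passed (adjusted p = 0.112). Gm26917 missed the threshold in 11 of 19 alternatives (adjusted p of 0.0503 to 0.112), among them leaving out control 1, 2 or 3 or brimonidine 1, 2, 3, 4 or 6. With array weights its log2 fold change of -0.96 was under the minimum, so the call was lost in 12 of 19. The ranges of Gm26917 overlapped, since brimonidine 5 and brimonidine 7 were both at 43 FPKM and control 3 was at 42.4 FPKM. CT010467.1 was at 829 FPKM in brimonidine 5 and 1330 FPKM in brimonidine 7, its highest values in that group. Lars2 was also highest there, at 126 and 137 FPKM, and was below the controls throughout (-1.90 ± 0.52, adjusted p = 0.0342, or 0.0933 without control 2).

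Mir142hg had a log2 fold change just under the minimum, at 0.997 ± 0.23 (adjusted p = 0.0153), and 0.77 without control 2 (adjusted p = 0.0681). AU020206 was at 28.7, 30.3 and 33.6 FPKM at the lowest, median and highest in brimonidine, above all 3 controls. Its log2 fold change was 0.58 ± 0.11 (adjusted p = 0.00539), and it still passed without control 2 (0.48, adjusted p = 0.0184). Neat1 was at 31.4, 36.1 and 39.1 FPKM, also above the controls (0.40 ± 0.10, adjusted p = 0.0203), and did not pass without control 2 (adjusted p = 0.0626). Gm28875 and Prr33 had values of 0.64 ± 0.15 and 0.37 ± 0.09 (adjusted p = 0.0164 and 0.0219), and neither passed without control 2 (adjusted p = 0.0657 and 0.0749). On the lower side, Snhg20 had -0.53 ± 0.15 (adjusted p = 0.0413), and without control 2 its adjusted p was 0.161. AC153899.1, in the same count, had -0.50 ± 0.13, or -0.31 without control 2, and passed the minimum only through the controls.

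The genes also differed in how evenly they were expressed among exposed mice. Over the 14 exposed libraries the coefficient of variation had a median of 17.9% for the 75 genes, against 9.13% for 8202 coding genes at the same minimum. These sets were not matched for level, length or number of fragments, so the gap cannot be read as a trait of noncoding genes. The coefficient of variation was highest for Mir124a-1hg at 86.6%, AU040972 at 52.5%, Gm26917 at 43.3% and Malat1 at 42.7%. The value of Mir124a-1hg rested on brimonidine 5. Without that library it was 25.7%, rank 13, and AU040972 was highest at 54.3%, followed by Malat1 at 44.3%. Malat1 ran from 30.5 FPKM in brimonidine 6 to 144 FPKM in brimonidine 7, a range of 4.72-fold. In contrast, Tmem250-ps, Neat1 and 2900097C17Rik varied by 4.92%, 6.29% and 6.86%. Malat1 and Neat1, which lie near each other, were thus among the most uneven and the most even of the abundant genes. CT010467.1, the ribosomal RNA gene beside Gm26917, was at 157 FPKM in brimonidine 6 and 1330 FPKM in brimonidine 7. These were also its lowest and highest levels among the exposed libraries. Brimonidine 5 had 829 FPKM of CT010467.1 and 72.8 FPKM of Malat1. The part of ribosomal RNA in the spread of Malat1 was not tested.

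Several of these uneven libraries also stood out in cell type markers. In brimonidine 5, Mir124a-1hg was at 6.31 FPKM against 0.822 to 1.35 FPKM in the other 6 libraries of its group, and the hindbrain neuron markers summed to 151 FPKM against 51.2 to 79.6 FPKM. H19 was highest in NE 4, at 13.5 FPKM, and in brimonidine 5, at 11.9 FPKM, and the 6 skeletal muscle markers were also highest there, at 847 and 714 FPKM. In the controls those muscle markers summed to 177, 487 and 213 FPKM, with the highest H19 in control 2. F630028O10Rik and Mir142hg were highest in NE 6 and brimonidine 2, and so were the neutrophil markers, at 64942 and 58103 FPKM. F630028O10Rik was at 151 FPKM in NE 6 and 156 FPKM in brimonidine 2. The part of these cells in the levels was not tested.

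**Figure D5:**
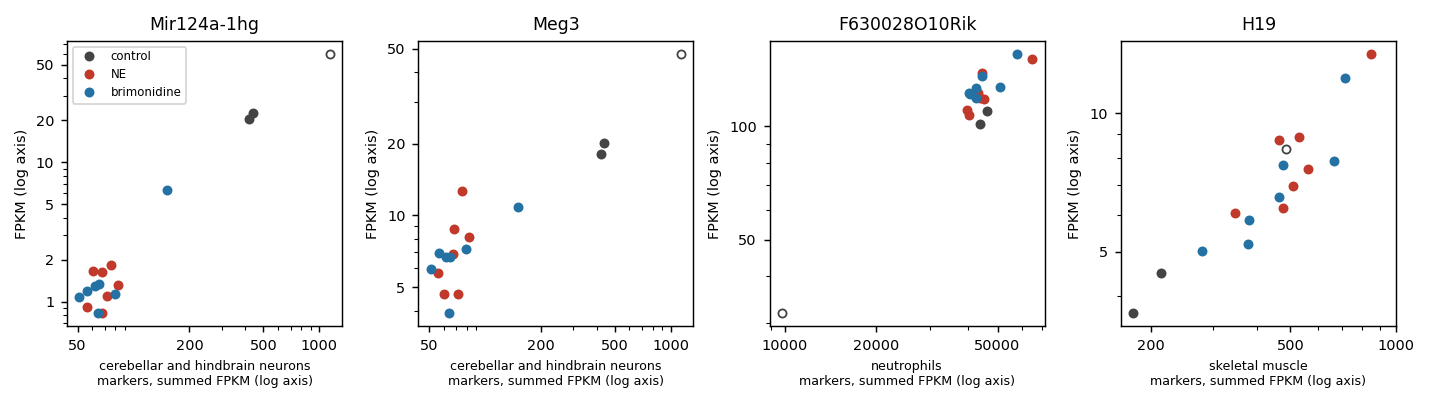
Level of 4 genes against the summed level of a marker list in each of 17 libraries, both in FPKM on log axes; colours give the group and the open point is control 2. The controls lie at the upper right for Mir124a-1hg and Meg3, control 2 lies at the lower left for F630028O10Rik, and NE 4 is the highest point for H19.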

How the data were processed

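RNA from the cochleae of 17 mice (3 control, 7 NE, 7 brimonidine) was sequenced after stranded mRNA library preparation, which selects polyadenylated RNA, so RNAs without a tail are under-represented. The deposited table holds FPKM values per gene and library, made by the authors. The submitters' processing notes name Trimmomatic, HISAT2, Cufflinks and HTSeq and the build mm10. Their versions, the annotation and the use of strand in counting are not given in the sources used here. FPKM steps gave whole fragments in at least 90% of libraries for 34949 of 35029 genes (99.8%, tolerance 0.05 fragments), with 14457707 to 18288796 fragments per library. All 75 genes were whole, with at least 3 fragments in every library (AC139568.1 in control 2) and a median of 99 in the lowest library of each gene. For 2405 genes, AW112010, H19 and Gm16194 among them, the length was solved from the values, so being whole was fixed in advance. With annotated lengths alone, 94.17% of values were whole. Gene models were GENCODE M21, in which 74 of the 75 genes had an entry and 70 the same position.

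Because the values were FPKM and not counts, the test was limma 3.58.1 (R 4.3.3), an empirical Bayes fit with a trend, on log2(FPKM + 1) in place of the count test of the study. The pseudocount of 1 understates the change of low genes. Each fit used the libraries of the 2 groups compared and genes with at least 1 FPKM in at least 3 of them. Benjamini-Hochberg adjustment was over all genes tested. A gene was called when its adjusted p was below 0.05 and it differed by 1 or more on the log2 scale in either direction. Errors after ± are standard errors of the log2 fold change. Single genes were also tested with an exact two-sided permutation test. Each library is a separate mouse, so the spread is between mice. Scripts were tested on simulated data. Python 3.11.15 was used for tables.

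The genes and lists were chosen with earlier results of these data known. Named genes were the 10 highest by mean, those in the role lists, per comparison the 5 genes of lowest p that were higher and the 5 that were lower, those at the minimum and hosts of small RNAs. The list of microRNA hosts held 5 of the 75 genes (Mir142hg, Mirt1, Mir124a-1hg, H19, Mir17hg) and that of snoRNA hosts 6 (Epb41l4aos, Meg3, Snhg6, Snhg20, Snhg18, Mir17hg), while counts in the report use the annotated small RNA genes. Marker lists held 14 cochlear, 14 hindbrain neuron, 8 spiral ganglion neuron, 9 B cell, 10 neutrophil, 8 erythroid (7 in the table), 6 bone and 6 skeletal muscle genes. The lists not described in the report summed to 31.5 to 115 FPKM per library for B cells, 812 to 5197 for erythroid cells and 391 to 1079 for bone. Of the other role lists, 0 of 4 X inactivation RNAs were among the 75 genes, and the growth arrest list held Neat1. The neural list held Meg3 and Mir124a-1hg, both called lower in NE and in brimonidine against control, beside 5.49% and 5.56% of all genes. Mir124a-1hg passed the minimum only through the controls, and so few genes allow no reading of the list.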

Additional observations from a re-analysis of the deposited data

Results flagged for a closer look

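A library was set apart where its gap to the nearest other library exceeded Dixon's 95% limit for the range of its group of 7, which chance gives in about 1 in 20 groups. This was examined for 38 named genes in the NE and brimonidine groups, or 76 groups, and 6 were past the limit. Mir124a-1hg was at 6.31 FPKM in brimonidine 5, against 0.822 to 1.35 FPKM in the other 6 libraries. H19 was at 11.9 FPKM in brimonidine 5, against 5.03 to 7.86 FPKM, and at 13.5 FPKM in NE 4, against 6.07 to 8.88 FPKM. Gm42047 was at 62.7 FPKM in brimonidine 6, against 26.8 to 40.2 FPKM. Snhg18 was at 8.26 FPKM in brimonidine 7, against 5.35 to 6.45 FPKM. Gm5547 was at 12.5 FPKM in NE 2, against 5.55 to 7.08 FPKM. The cause of these values was not tested.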

How the results depend on the processing

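In NE against control, the counts were 2 genes higher and 3 lower. With the replicate number as a block they were 0 and 0, as over all genes, and with no minimum fold change 4 and 6. Leaving out a library gave 0 to 6 higher and 3 to 3 lower: without control 1 it was 6 higher (0.930% of all genes), without control 2 it was 0 (0.181%), and without control 3 or without NE 6 it was 1 (0.549% and 0.321%), against 0.270% with all libraries. In brimonidine against control, 0 were higher and 3 lower. It was 1 higher with a pseudocount of 0.1, median ratio scaling, equal totals, array weights or voom on recovered fragments (0.201% to 0.702% of all genes, against 0.169%), and with no minimum fold change 7 were higher and 5 lower. Leaving out a library gave 0 to 4 higher, with 4 without control 1 (1.15% of all genes), and 2 to 3 lower. Brimonidine against NE had 0 calls in every alternative run. Voom called 49 genes higher and 1205 lower of all genes in NE against control, against 43 and 875, and 51 and 1241 in brimonidine against control, against 27 and 886. The replicate numbers did not pair the libraries: correlations of deviations were -0.221 to 0.0832, and 1 of 3, 0 of 7 and 0 of 3 libraries matched best with their own number in NE against control, brimonidine against NE and brimonidine against control. Of 1044 repeats over the named log2 fold changes, 929 kept direction and side of the threshold, 71 lost it, 31 gained it and 13 reversed, all in values near 0 and not past the threshold. In NE against control, Snhg18 gave 0.043 with quantile normalization and Bvht gave 0.061 with it and 0.042 with array weights. Leaving out a library gave -0.33 to 0.18 for Snhg18 and -0.25 to 0.15 for Bvht, with the positive ends without control 2. In brimonidine against NE, Mir142hg gave 0.022 with array weights, and leaving out a library gave -0.11 to 0.031 for Mir142hg (positive without NE 6), -0.097 to 0.22 for Gm26917 (negative without NE 4, brimonidine 5 or brimonidine 7), -0.16 to 0.069 for Meg3 (positive without NE 3 or brimonidine 3) and -0.10 to 0.23 for Mir124a-1hg (negative without brimonidine 5). The causes were not tested. The control group of 3 libraries, with control 2 apart, limits every comparison with it, and low genes rest on few fragments.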
